A study of Homo sapiens with 105 samples.

Results

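The 9 genes HNF4A, HNF4G, CDX1, CDX2, GATA4, GATA5, GATA6, EHF and ELF3 encode transcription factors of the intestinal epithelium. They were taken by name from a count table of 63241 genes, and all 9 were found in it. The cells are Caco-2, an established human line from a colon adenocarcinoma that takes on features of small-intestinal enterocytes as its cultures grow dense. The cultures were exposed to bacterial extracellular vesicles (BEVs) or to RNA isolated from such vesicles, and the study asked how the vesicles and their RNA alter the transcriptome. The labels give no genetic change in any group.

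HNF4A and HNF4G are nuclear receptors that bind the enhancers of enterocyte genes. The homeobox factors CDX1 and CDX2 hold intestinal identity, and the zinc-finger factors GATA4, GATA5 and GATA6 act with them along the length of the gut. EHF and ELF3 are ETS factors restricted to epithelia, and both have been linked to epithelial inflammation.

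In the incubated groups the medium contained P. mirabilis outer membrane vesicles (OMVs, 6.0e9 particles), L. casei membrane vesicles (MVs, 1.5e11 particles), E. faecalis MVs (7.5e9 particles), P. mirabilis lipopolysaccharide (LPS, 0.2 ng per µl by the labels) or, as the control, PBS. In the lipofected groups a lipid reagent carried RNA of L. casei MVs (100 ng), E. faecalis MVs (5 ng) or P. mirabilis OMVs (2 ng), or LPS (1 ng per µl by the labels). A negative-control siRNA at 100, 5 or 2 ng was the control of each. The study's methods state both LPS doses per ml and not per µl, so the dose is uncertain. RNA was taken after 10 and 24 h from each of these 12 groups, and after 48 h from the groups with L. casei MVs, L. casei MV-RNA, PBS and 100 ng siRNA only. The labels number the replicates of a group but do not say which cultures share a number.

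By GENCODE v44 (GRCh38), HNF4A lies on chromosome 20 from 44355699 to 44432845, GATA5 on chromosome 20 from 62463497 to 62475995, and CDX2 on chromosome 13 from 27960918 to 27969315. GATA6 lies on chromosome 18 from 22169589 to 22202528, CDX1 on chromosome 5 from 150166778 to 150184558, and HNF4G and GATA4 on chromosome 8 from 75407914 to 75566834 and from 11676959 to 11760002. EHF lies on chromosome 11 from 34621093 to 34663288 and ELF3 on chromosome 1 from 202007945 to 202017183. CDX2 and GATA5 are on the minus strand and the other 7 on the plus strand. The exons of ELF3 overlap those of its antisense gene ELF3-AS1 over 664 bases, and those of GATA6 overlap GATA6-AS1 over 94 bases and another antisense gene over 321. ELF3-AS1 held 18242 counts against 19806 for ELF3, and the strand setting of the counting is not given in the sources used here, so reads of the overlap cannot be assigned to a strand.

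The labels hold 28 groups with 66 libraries that were kept and 39 more, from 3 lanes of 1 flow cell, that were set aside. For every library the time and replicate number whose kept libraries it resembled most was looked up. That time was the one on the label for 66 of 66 kept libraries, against 12 of 39 set aside. All values below are of the 66 kept libraries unless stated, with 2 libraries in 20 groups, 3 in 6 groups and 4 in 2 groups. Their totals ran from 632659 to 8558755 assigned reads, with a median of 5563438. In these libraries the epithelial markers EPCAM, CDH1, KRT8, KRT18, KRT19, KRT20, VIL1 and CDH17 summed to between 4341 and 9291 CPM, the count scaled to a common library size. The 8 markers of blood, endothelial and stromal cells summed to 28.3 to 83.2 CPM. The leukocyte marker PTPRC had a count in 2 of the 66 libraries and the fibroblast marker DCN in 7, whereas COL1A1, at 17.0 to 65.8 CPM, had counts in all of them. RNA came from whole cultures, so fewer cells with a transcript and less transcript per cell cannot be told apart.

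RefSeq promoters (GRCh38.p14) were found for 5 of the 9 genes. The 250 bases before the 2 start sites of EHF and the single listed start of ELF3 are shown, since EHF was the member that rose with OMVs and ELF3 is its close relative. They run 5′ to 3′ on the plus strand, and the capitals mark matches to any of 6 motifs searched on both strands.
EHF, first start, chr11:34624007-34624256: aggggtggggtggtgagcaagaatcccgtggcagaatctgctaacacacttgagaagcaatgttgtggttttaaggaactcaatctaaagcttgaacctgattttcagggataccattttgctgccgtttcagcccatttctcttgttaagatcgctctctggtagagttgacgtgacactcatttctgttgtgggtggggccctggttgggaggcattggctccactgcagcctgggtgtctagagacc
EHF, second start, chr11:34632316-34632565: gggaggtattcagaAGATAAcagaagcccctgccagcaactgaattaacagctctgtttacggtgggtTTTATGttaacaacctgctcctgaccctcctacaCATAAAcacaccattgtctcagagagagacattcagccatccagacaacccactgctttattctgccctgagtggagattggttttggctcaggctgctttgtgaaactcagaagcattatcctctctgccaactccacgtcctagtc
ELF3, chr1:202010337-202010586: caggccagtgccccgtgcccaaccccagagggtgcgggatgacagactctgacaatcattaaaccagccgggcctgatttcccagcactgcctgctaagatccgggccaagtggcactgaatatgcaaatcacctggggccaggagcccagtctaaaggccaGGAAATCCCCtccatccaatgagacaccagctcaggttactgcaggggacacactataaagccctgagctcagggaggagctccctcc
The motifs were that of NF-kB by name, for AP-1 the letters TGANTCA, for ETS factors the letters AGGAAG, for GATA factors the letters AGATAA, for CDX factors the letters TTTATG and for HNF4 factors the letters CAAAGT. The window before the first EHF start held no match. The window before the second held 1 GATA match, 236 bases before the start, and 2 CDX matches, 182 and 148 bases before it. The ELF3 window held 1 NF-kB match, 88 bases before the start. Of 35114 RefSeq promoters of this length, 5.21% held the NF-kB motif, 9.17% the GATA motif and 9.64% the CDX motif. The AP-1, ETS and HNF4 motifs stood in 6.57%, 28.7% and 10.3% of them. These are matches of letters and not measured binding.

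On a scale of CPM per kb of exon, which allows levels of different genes to be compared, the members fell into 3 tiers. HNF4A (median 79.4 CPM per kb), GATA6 (67.2) and CDX2 (57.6) formed the upper tier. ELF3 (7.76), HNF4G (3.16) and GATA4 (1.13) lay in the middle, and GATA5 (0.53) and EHF (0.26) were the lowest with a level in most libraries. HNF4A exceeded its paralogue HNF4G in 66 of 66 libraries, by a median of 23.5-fold on this scale, GATA6 exceeded GATA4 in 66 of 66 by a median of 57.0-fold, and ELF3 exceeded EHF in 66 of 66 by a median of 27.8-fold. Neighbours within the upper tier did not keep one order, since CDX2 lay above GATA6 in 24 of 66 libraries and HNF4A above GATA6 in 48 of 66. GATA4 lay above GATA5 in 58 of 66. CDX1, the paralogue of CDX2, had 14 counts over the 66 libraries, with none in 52 of them and at most 1 in any. It did not pass the filter on low counts, so 8 of the 9 members were tested, and nothing can be said of its response at this depth.

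**Figure D1:**
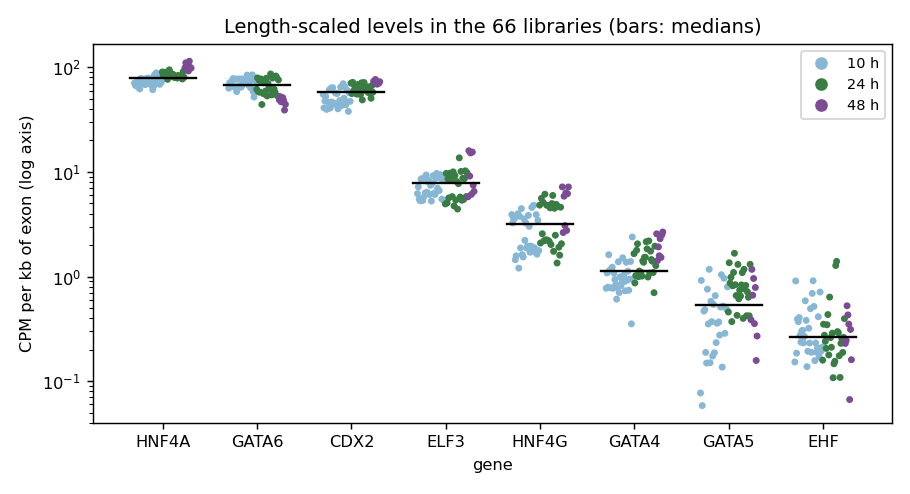
Level of each tested member in CPM per kb of exon (log axis), 1 point per library, coloured by time, with bars at the medians over 66 libraries. HNF4A, GATA6 and CDX2 sit far above the other members, and EHF has the lowest median, at 0.26; 3 libraries with no GATA5 count are not drawn.

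Within the members, time and replicate number accounted for most of the differences between libraries, except for EHF. The class of time and replicate number took up 91.2% of the variance of log2 CPM for HNF4G, 89.9% for CDX2, 84.8% for ELF3, 82.1% for HNF4A and 80.0% for GATA6. It took up 65.3% for GATA4 and 57.7% for GATA5, whose counts were low. For EHF it took up 15.8%, while treatment within these classes took up 60.1%. These shares are a description of the 66 libraries with no test. They are not corrected for the number of classes and groups fitted, so part of each share is spread between libraries.

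The treatments were each compared with their own control at the same time in 18 comparisons. EHF rose with P. mirabilis OMVs at 10 and 24 h, and those were the 2 calls among 144 member tests. An edgeR quasi-likelihood test with replicate number as a block was used, and a gene was called at a Benjamini-Hochberg adjusted p under 0.05 over 18775 genes. Over these 18 comparisons 0.22% of all tests were called, and 13 member tests had an unadjusted p under 0.05.

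With OMVs for 10 h, EHF stood at 4.56, 6.02 and 3.43 CPM (29, 50 and 19 counts), against 1.27 and 1.39 CPM with PBS (3 and 10 counts). All OMV libraries lay above both PBS libraries. The means were 4.67 ± 1.3 CPM with OMVs (SD, n = 3) and 1.33 ± 0.08 CPM with PBS (SD, n = 2), a log2 fold change of 1.82 ± 0.44 (SE, edgeR adjusted p = 0.0156). In this comparison 1.06% of the genes were called. The summed level of the 8 markers of other cell types was 28.3 to 35.2 CPM with OMVs and 38.0 to 40.3 CPM with PBS, with PTPRC and DCN at 0 in both groups, none of the 5 tested among them was called, and their part in the result was not tested. Without the replicate block the change was 1.79 (edgeR adjusted p = 0.429). The direction held whichever library was left out, and the call did not: the adjusted p was 0.142 without OMV replicate 3, 0.051 without PBS replicate 2 and 0.492 without PBS replicate 3.

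With OMVs for 24 h, EHF stood at 8.44 and 9.23 CPM (31 and 42 counts), against 1.73 and 2.62 CPM with PBS (11 and 13 counts). These 2 OMV libraries held the highest EHF levels of all 66. The means were 8.83 ± 0.56 CPM with OMVs and 2.18 ± 0.63 CPM with PBS (SD, n = 2 each), a log2 fold change of 2.03 ± 0.38 (edgeR adjusted p = 0.00115), where 0.112% of the genes were called. The markers of other cell types summed to 45.4 and 65.5 CPM with OMVs and 65.8 and 68.5 CPM with PBS, with PTPRC at 0 in both groups and none called. Without the replicate block the edgeR adjusted p was 0.180 at the same size of change. Without OMV replicate 3 the adjusted p was 0.052, and without PBS replicate 2 it was 0.317. The effect at 24 h exceeded that at 10 h by 0.21 ± 0.66 on the log2 scale, a difference that was not past the threshold.

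In the set-aside lanes EHF did not stand out with OMVs. The single OMV library labelled 10 h there had 1.70 CPM, against 2.1 and 3.42 CPM in the PBS libraries, and the OMV libraries labelled 24 h had 3.05 and 2.62 CPM, against 2.75 and 1.98 CPM with PBS. The OMV library labelled 10 h was most similar to kept libraries of 24 h, and 1 of the 2 labelled 24 h to those of 10 h. The highest EHF level in these lanes, 6.94 CPM, was in the library labelled 2 ng siRNA at 10 h, replicate 5, which was most similar to 24 h. With kept and set-aside libraries fitted together and the replicate block, the EHF change was 0.96 at 10 h (edgeR adjusted p = 0.960) and 1.35 at 24 h (0.763).

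**Figure D2:**
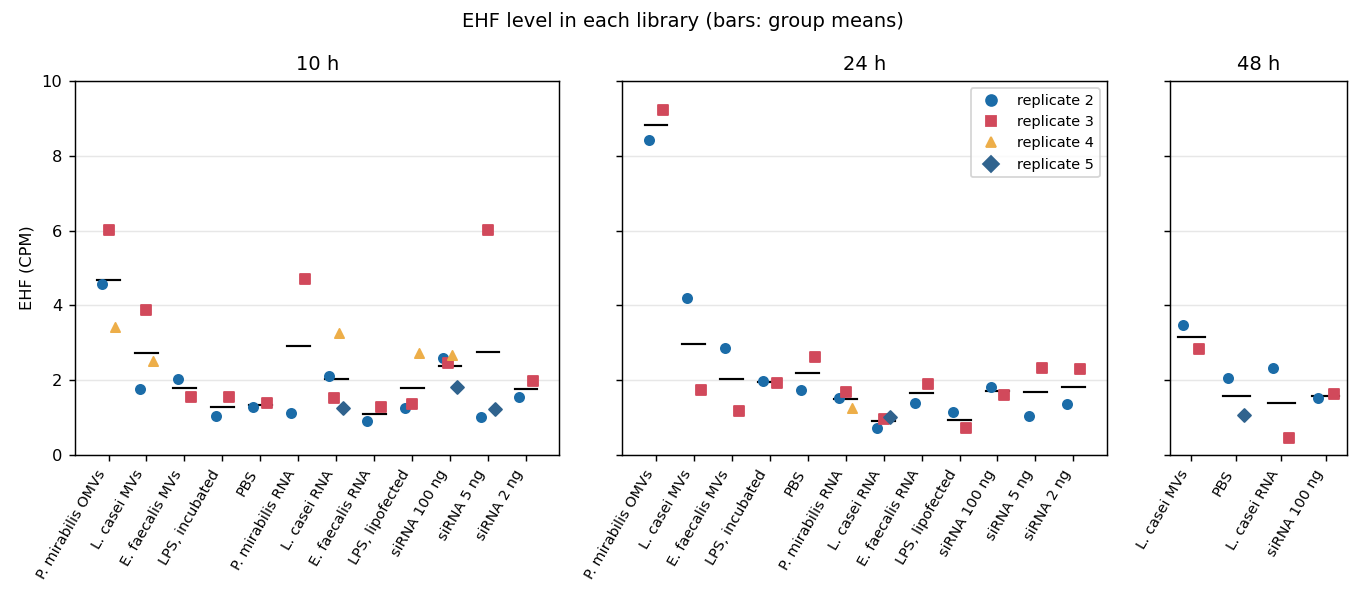
EHF level (CPM) in each kept library by group at 10, 24 and 48 h, with markers for the replicate number and bars at group means. P. mirabilis OMVs are at the left of the first 2 panels, at 3.43 to 6.02 CPM after 10 h and 8.44 to 9.23 CPM after 24 h; the 2 high points among lipofected groups at 10 h rest on 5 and 3 counts.

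The other incubations left EHF nearer to its level with PBS. L. casei MVs gave 1.77, 3.88 and 2.52 CPM at 10 h, all above the 2 PBS libraries, and the log2 fold change of 1.03 ± 0.49 did not pass (edgeR adjusted p = 0.628). At 24 h L. casei MVs gave 4.21 and 1.72 CPM, and the range overlapped that of PBS. At 48 h they gave 3.47 and 2.84 CPM, against 2.06 and 1.06 CPM with PBS and 1.52 and 1.62 CPM with 100 ng siRNA, and neither difference passed. The kept PBS libraries of 48 h are replicates 2 and 5, and those of L. casei MVs and of 100 ng siRNA are replicates 2 and 3. LPS in the medium gave 1.04 and 1.53 CPM at 10 h and 1.97 and 1.92 CPM at 24 h, with log2 fold changes from PBS of -0.06 ± 0.60 and -0.12 ± 0.46.

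Lipofected vesicle RNA gave no call for EHF or any other member, and 0 of 18775 genes were called in each of these comparisons. The absence of calls was thus common to all genes and is no result about the members. OMV-RNA gave EHF levels of 1.12 and 4.70 CPM at 10 h, against a mean of 1.77 ± 0.30 CPM with 2 ng siRNA (SD, n = 2), but the 4.70 CPM rests on 3 counts in the library with the fewest reads of all, 632659. The 6.01 CPM of 1 library with 5 ng siRNA rests on 5 counts of 805396. At 24 h OMV-RNA averaged 1.48 ± 0.22 CPM (SD, n = 3), against 1.82 ± 0.66 CPM with 2 ng siRNA (SD, n = 2). The EHF effect of OMVs exceeded that of OMV-RNA by 2.35 ± 0.62 on the log2 scale at 24 h, which was not past the threshold over all genes (edgeR adjusted p = 0.216). Over 12 such tests of a difference between effects, 0 of 96 member tests passed, 8 had an unadjusted p under 0.05, and 0.0315% of all tests were called.

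ELF3, the ETS relative of EHF, was not called in any treatment. With OMVs for 24 h it stood at 55.5 and 98 CPM, against 41.7 and 70.3 CPM with PBS. The OMV library was the higher within each replicate number while the groups overlapped, and the log2 fold change was 0.45 ± 0.19 (edgeR adjusted p = 0.959). With L. casei MVs for 48 h ELF3 stood at 65.5 and 109 CPM, against 53.6 and 46.8 CPM with PBS, with a log2 fold change of 0.41 ± 0.19 (edgeR adjusted p = 0.279). The 109 CPM is of replicate 3, a number that PBS lacked among the kept libraries of 48 h. Replicate 3 at 48 h also had 115 CPM with 100 ng siRNA and 111 CPM with L. casei MV-RNA.

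Among the nuclear receptors, HNF4A was lower in all 3 OMV libraries at 10 h than in both PBS libraries. It stood at 682, 621 and 668 CPM with OMVs and at 803 and 736 CPM with PBS, a log2 fold change of -0.22 ± 0.07 that was not called (edgeR adjusted p = 0.152). With the replicate block fitted within each time it was called, at -0.22 ± 0.06 (edgeR adjusted p = 0.0164), where 3.63% of all genes were called. At 24 h the difference was -0.08. HNF4G ranged from -0.29 to 0.34 over the 18 comparisons on the log2 scale.

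CDX2 ranged from -0.10 to 0.20 and GATA6 from -0.24 to 0.20 over the same comparisons, the narrowest spans beside that of HNF4A, -0.22 to 0.16. GATA4 ranged from -0.85 to 0.57 and GATA5 from -1.58 to 1.4, and none of these was called. The lowest GATA5 value was that with OMVs at 10 h, where it had 0, 0.96 and 0.72 CPM (0, 8 and 4 counts), against 1.27 and 2.09 CPM with PBS (3 and 15 counts), and the groups did not overlap (edgeR adjusted p = 0.206). GATA4 with L. casei MVs at 10 h had the lowest of its own values, -0.85 ± 0.31 (edgeR adjusted p = 0.50).

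**Figure D3:**
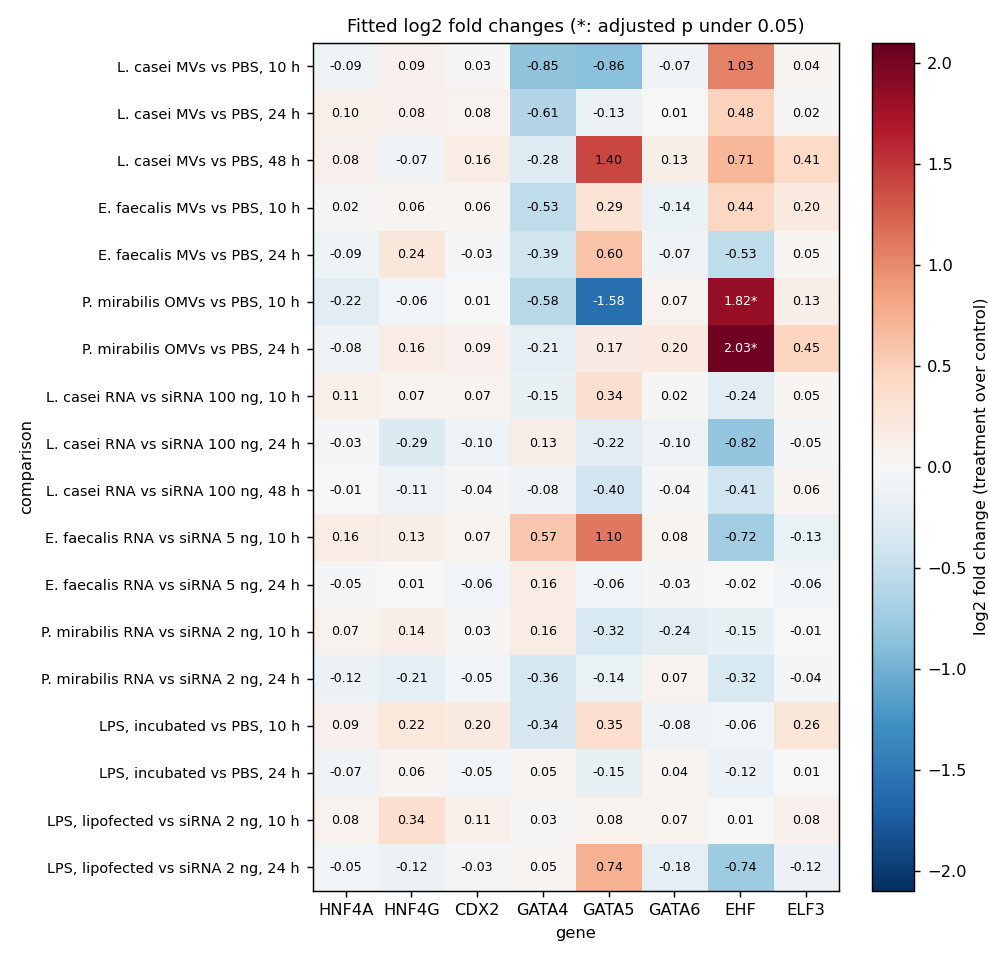
Fitted log2 fold changes of the 8 tested members (columns) in the 18 treatment comparisons (rows, treatment over its control), with asterisks at an adjusted p under 0.05. Only the 2 cells of EHF with P. mirabilis OMVs, 1.82 at 10 h and 2.03 at 24 h, carry an asterisk; GATA5, with a median of 8 counts per library, spans the widest range among the others.

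Set against LPS in the medium in place of PBS, OMVs gave 4 member calls among 32 tests, with 0.835% of all tests called in the 4 comparisons with LPS. These comparisons share the OMV libraries with those above. EHF was higher with OMVs by 1.88 at 10 h (edgeR adjusted p = 0.00182), where 3.18% of the genes were called, and by 2.15 at 24 h (0.000209), where 0.16% were called. At 10 h the call was lost without LPS replicate 2 (adjusted p = 0.089), and at 24 h it held without each library. HNF4A was lower with OMVs at 10 h by -0.31 ± 0.07, at 657 ± 32.2 CPM with OMVs (SD, n = 3) and 819 ± 60.9 CPM with LPS (SD, n = 2), without overlap (edgeR adjusted p = 0.0061). GATA5 was lower at 10 h by -1.93 ± 0.53, at 0.56 ± 0.50 CPM with OMVs (12 counts in all) and 2.03 ± 0.98 CPM with LPS (25 counts, edgeR adjusted p = 0.0246). The HNF4A call was lost without OMV replicate 3 (adjusted p = 0.08) or LPS replicate 2 (0.170). That of GATA5 was lost without OMV replicate 2 (0.126), OMV replicate 4 (0.053), LPS replicate 2 (0.115) or LPS replicate 3 (0.221). With the replicate block fitted within each time CDX2 was called too, lower with OMVs at 10 h by -0.19 ± 0.06 (edgeR adjusted p = 0.026), where 8.02% of all genes were called. OMV-RNA against lipofected LPS gave no member call, and 0 of 18775 genes were called at 10 h and at 24 h.

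Between vesicles of different species, EHF at 24 h was higher with OMVs than with L. casei MVs by 1.55 (edgeR adjusted p = 0.038) and than with E. faecalis MVs by 2.56 (0.00105). Particle numbers differed, at 6.0e9 for OMVs, 1.5e11 for L. casei MVs and 7.5e9 for E. faecalis MVs. Species and dose can therefore not be told apart. The paper states that its experiments were not meant to compare effects between species. E. faecalis MVs gave 1.18 to 2.87 CPM at 24 h. In these comparisons 0.0692% and 0.0479% of the genes were called, and over all 6 comparisons of species 2 of 48 member tests and 0.249% of all tests were called. At 10 h the differences were 0.79 ± 0.30 from L. casei MVs (edgeR adjusted p = 0.438) and 1.38 ± 0.40 from E. faecalis MVs (0.0741), where 0.852% of all genes were called. With the replicate block fitted within each time, 4 members were called against E. faecalis MVs at 10 h, where 3.4% of all genes were called. EHF was then higher with OMVs by 1.35 ± 0.38 (edgeR adjusted p = 0.0221) and GATA6 by 0.22 ± 0.06 (0.0323), while HNF4A was lower by -0.24 ± 0.06 (0.00728) and GATA5 by -1.94 ± 0.57 (0.0296). The call against L. casei MVs was lost without any 1 of OMV replicate 2 (adjusted p = 0.310), OMV replicate 3 (0.280) or L. casei MV replicate 3 (0.95 on the log2 scale), and that against E. faecalis MVs without E. faecalis MV replicate 3 (1.53, adjusted p = 0.586).

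Lists of related genes were read against the share of all genes called in the same comparison. With OMVs at 10 h against PBS, where that share was 1.06%, 0 of 15 other ETS factors passed, and at 24 h, where it was 0.112%, again 0 of 15. Counts of 0 in a list of 15 are near such shares, and the median log2 fold changes were -0.02 and 0.07 (0.00 over all genes at both times). Of 27 other intestinal transcription factors, 1 fell at 10 h, ISX, a homeobox repressor of vitamin A uptake genes, to 7.41 CPM with OMVs, against 12.3 CPM with PBS (-0.77). Of 20 enterocyte genes under these factors, 1 fell at each time, the brush border peptidase DPP4, by -0.37 at 10 h and -0.41 at 24 h. Against LPS at 10 h, where 1.88% of all genes were lower with OMVs and 1.3% higher, 3 of the 27 transcription factors and 4 of the 20 enterocyte genes were lower and none higher. ISX (-1.03), KLF5 (-0.43), a growth regulator of crypts, and GRHL1 (-0.66) fell, as did DPP4 (-0.43), lactase LCT (-0.96), the apolipoprotein APOA1 (-0.43) and the peptidase ANPEP (-0.91). The median over the 20 enterocyte genes was then -0.35, with 0.00 over all genes. COL1A1, listed as a marker of other cells, fell too, by -0.67, the only call among the 5 tested. The 8 markers summed to 28.3 to 35.2 CPM with OMVs and 39.8 to 44.1 CPM with LPS, with PTPRC at 0 in both groups, and their part in these values was not tested.

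Time in culture moved most members. Over the 12 groups present at both times, 24 h differed from 10 h for 6 of 8 members, where 54.9% of all genes were called, so that a count of this size is common among all genes. HNF4A rose by 0.18 ± 0.02 on the log2 scale, CDX2 by 0.27 ± 0.03, HNF4G by 0.33 ± 0.05, GATA4 by 0.44 ± 0.09 and GATA5 by 1.10 ± 0.17. Without the replicate block 4 members were called, where 43.6% of all genes were, and 4 with the set-aside libraries included, where 38.6% were. HNF4G lost its call in both fits (edgeR adjusted p = 0.165 and 0.0891), and so did GATA6 (0.171 and 0.162). GATA6 was lower by -0.09 ± 0.03 (edgeR adjusted p = 0.0199), a call also lost with the low-count filter set on the 66 libraries (0.0795) and with replicates 2 and 3 alone (0.0515). EHF (-0.00 ± 0.12) and ELF3 (0.05 ± 0.06) were not called.

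Over the 4 groups present at both times, 48 h differed from 24 h for 6 of 8 members, where 43.5% of all genes were called. HNF4A rose by 0.26 ± 0.04, HNF4G by 0.39 ± 0.08, CDX2 by 0.17 ± 0.05, GATA4 by 0.51 ± 0.13 and ELF3 by 0.54 ± 0.09, while GATA6 fell by 0.42 ± 0.06. GATA5 (-0.56 ± 0.27) and EHF (0.02 ± 0.26) were not called. Without the replicate block 3 members were called, where 28.5% of all genes were, and with the set-aside libraries included 0, where 8.83% were. Of the 20 enterocyte genes, 15 rose and 2 fell between these times, where 20.3% of all genes rose and 23.2% fell, with a median log2 fold change of 0.54 against 0.00 over all genes, among them the peptidase ANPEP (1.67) and lactase LCT (1.26). Among the epithelial markers 6 of 8 fell, KRT8 by 0.93 and KRT18 by 0.96, and CDH1 and KRT20 rose. Of the 5 tested markers of other cell types, 3 rose and none fell, COL1A1 by 0.47, CD3E by 0.94 and PECAM1 by 0.70, with a median of 0.47. The 8 markers summed to 28.3 to 45.5 CPM in the 32 libraries of 10 h, 45.4 to 69.0 CPM in the 26 of 24 h and 70.1 to 83.2 CPM in the 8 of 48 h, with PTPRC at 0 at 24 and 48 h. Their part in the differences between times was not tested.

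**Figure D4:**
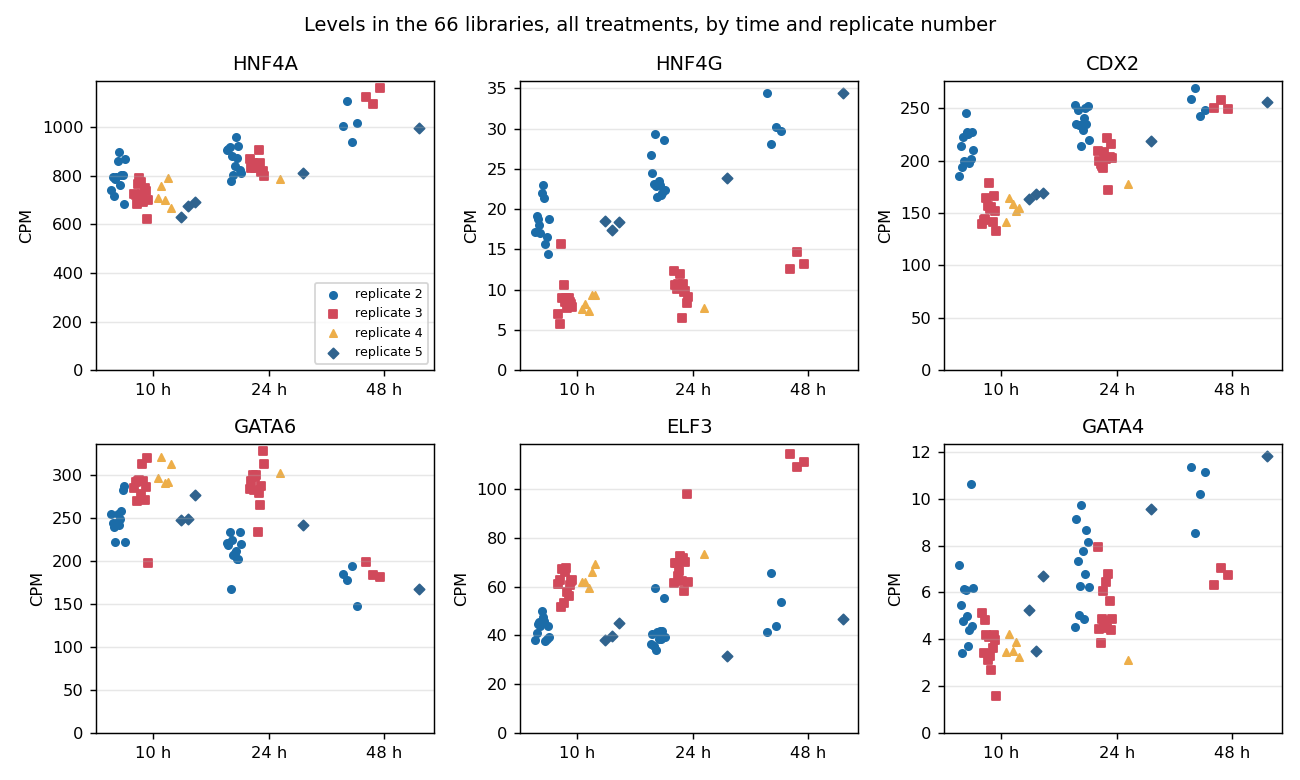
Levels (CPM) of 6 members in the 66 kept libraries by time, 1 point per library of any treatment, with markers for the replicate number; the order of points within a class has no meaning. HNF4G is mostly higher and ELF3 mostly lower in replicates 2 and 5 than in replicates 3 and 4, HNF4A climbs to between 938 and 1163 CPM at 48 h, and GATA6 drops to between 148 and 199 CPM.

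The control groups taken alone had fewer calls, 13 of 48 member tests over 6 comparisons, where 12.2% of all tests were called. With PBS at 48 h, HNF4A had 1017 and 998 CPM, against 925 and 815 CPM at 24 h, without overlap (0.26 ± 0.08, edgeR adjusted p = 0.0203). The kept PBS libraries are replicates 2 and 5 at 48 h and replicates 2 and 3 at 24 h. GATA6 had 148 and 168 CPM at 48 h, against 202 and 288 CPM at 24 h (-0.54 ± 0.13, edgeR adjusted p = 0.00212), and HNF4G rose by 0.50 (0.031), with 17.8% of the genes called. With 100 ng siRNA, 24 h against 10 h had calls for HNF4A (0.31), CDX2 (0.51), HNF4G (0.66) and GATA5 (1.79), where 14.1% of the genes were called, and 48 h against 24 h for HNF4A (0.26), GATA6 (-0.38) and ELF3 (0.60), where 15.3% were called. With 5 ng siRNA, HNF4A (0.31), CDX2 (0.40) and GATA5 (2.37) rose at 24 h, where 12.5% of the genes were called. PBS and 2 ng siRNA had 0 member calls between 24 and 10 h, where 1342 and 1183 of 18775 genes were called. A count of 0 members is near such shares. HNF4A changed there by 0.18 and 0.20 and CDX2 by 0.25 and 0.30.

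Most of these calls were lost when some single library was left out. Leaving 1 library out of a group of 2 also costs precision. The HNF4G change with PBS between 48 and 24 h stayed at 0.45 to 0.62 whichever library was left out. Of the 13, those of CDX2 and HNF4A with 100 ng siRNA between 24 and 10 h were the 2 that held without each library in turn. ELF3 with 100 ng siRNA at 48 h had 41.5 and 115 CPM, against 36.3 and 61.5 CPM at 24 h, and without replicate 3 of the 48 h group its change was 0.17 (edgeR adjusted p = 0.650). With flow cell and lane in the design that change was 0.27 (adjusted p = 0.311), that of GATA6 -0.17 (0.387) and that of HNF4A 0.19 (0.106).

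The replicate number was fitted as a single shift over all times. Replicate 3 then differed from replicate 2 for 7 of 8 members, all but EHF, where 62.2% of all genes were called. HNF4G was lower in replicate 3 by -1.18 ± 0.05, GATA4 by -0.50 ± 0.08, CDX2 by -0.30 ± 0.03 and HNF4A by -0.06 ± 0.02. GATA5 was higher by 1.12 ± 0.15, ELF3 by 0.70 ± 0.05 and GATA6 by 0.28 ± 0.03. EHF differed by 0.14 ± 0.14 (edgeR adjusted p = 0.375).

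HNF4G in replicate 3 had a median of 8.50 CPM at 10 h, 10.2 CPM at 24 h and 13.2 CPM at 48 h, and in replicate 2 it had 18.4, 23.1 and 29.9 CPM. The 2 numbers overlapped at 10 h through 1 library of replicate 3 at 15.6 CPM, which rests on 13 counts, and did not overlap at 24 or 48 h. ELF3 went the other way. Its median in replicate 3 was 61.8 CPM at 10 h, 68.0 CPM at 24 h and 111 CPM at 48 h, and in replicate 2 it was 43.7, 39.9 and 48.8 CPM. CDX2 in replicate 3 had medians of 153, 202 and 250 CPM and in replicate 2 of 212, 235 and 253 CPM, so that the numbers lay closest at 48 h. HNF4A did not keep 1 direction. Its medians were 724, 841 and 1122 CPM in replicate 3 and 795, 876 and 1011 CPM in replicate 2, with ranges that overlapped at each time. GATA6 had medians of 289, 291 and 184 CPM in replicate 3 and 247, 216 and 182 CPM in replicate 2.

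For HNF4G and ELF3, replicates 4 and 5, with 6 and 5 kept libraries, lay near replicates 3 and 2. At 10 h HNF4G had medians of 8.19 CPM in replicate 4 and 18.4 CPM in replicate 5, and ELF3 had 62.0 and 39.6 CPM. CDX2 in the 3 libraries of replicate 5 at 10 h had 163 to 169 CPM, below the 185 to 245 CPM of replicate 2. The HNF4A medians at 10 h were 675 CPM in replicate 5, 795 CPM in replicate 2 and 724 CPM in replicate 3. Which of these numbers to compare was chosen after seeing the data. No member was called between replicates 4 and 3, where 0.202% of all genes were called, or between replicates 5 and 2, where 0.842% were. The largest of these differences was that of EHF between replicates 5 and 2, -0.55 ± 0.32, and the others were within 0.33 on the log2 scale. With the set-aside libraries included, 6 members were called between replicates 5 and 2, where 24% of all genes were, and 3 between replicates 4 and 3, where 11.1% were. With flow cell and lane in the design, 4 were called between replicates 5 and 2, where 5.64% of all genes were, and 3 between replicates 4 and 3, where 9.57% were. ELF3 in replicate 5 against 2 was called in opposite directions in these fits, at 0.36 with the set-aside libraries and -0.59 with flow cell and lane. The labels do not say what a replicate number stands for, and what sets the numbers apart was not tested.

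**Figure D5:**
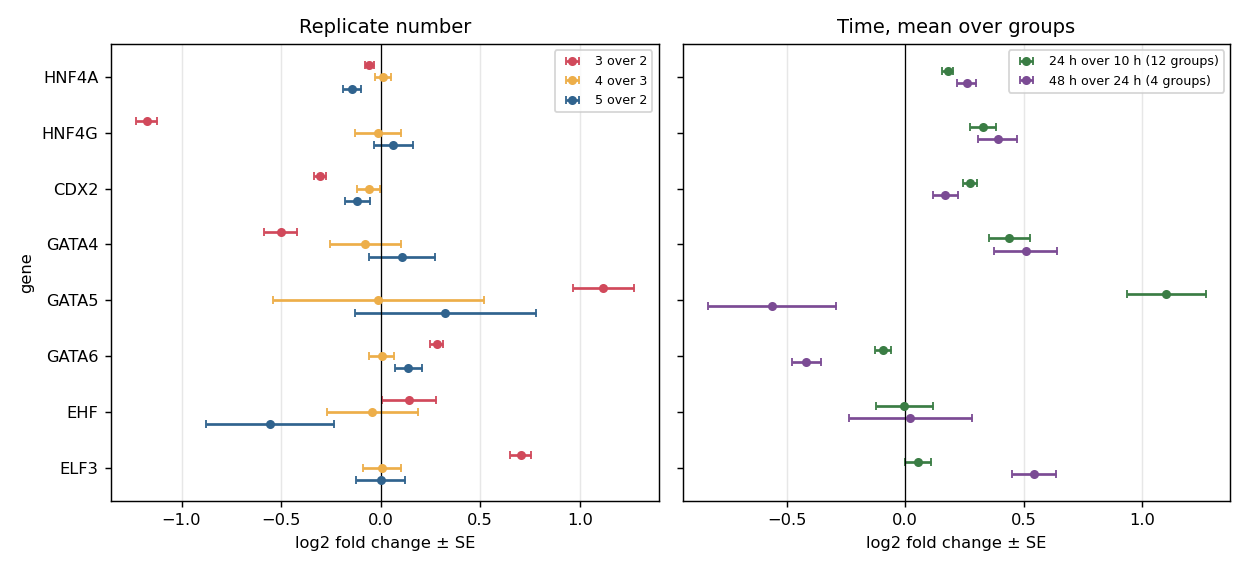
Log2 fold changes (points) with standard errors (bars) of the 8 tested members between replicate numbers (left) and between times averaged over groups (right). Replicate 3 over 2 runs from -1.18 for HNF4G to 1.12 for GATA5, whereas 4 over 3 and 5 over 2 lie within 0.33 of 0 except for EHF at -0.55 in 5 over 2; EHF lies near 0 in both time comparisons.

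The enterocyte genes split by replicate number too. Of 20 tested, 14 were lower in replicate 3 and 3 higher, where 62.2% of all genes were called, 31.1% in each direction, with a median log2 fold change of -0.47 against -0.00 over all genes. GUCY2C, the guanylin receptor, differed by -1.83, lactase LCT by -1.60, the alkaline phosphatase ALPI by -1.22 and DPP4 by -0.50. KRT20, a keratin of mature epithelium, was higher by 2.35. Of the 15 other ETS factors, 7 were higher and 2 lower, among them ETS1 (2.61) and ETS2 (0.95), a count of calls near the 62.2% of all genes. Of the 5 tested markers of other cell types, 3 were higher, COL3A1 by 2.62, CD14 by 0.46 and COL1A1 by 0.19, and CD3E was lower by -0.48. The 8 markers summed to 30.0 to 45.5 CPM in replicate 3 and 28.3 to 40.3 CPM in replicate 2 at 10 h, with ranges that overlapped at 24 and 48 h as well. PTPRC was at 0 in replicate 3 at each time and in replicate 2 at 24 and 48 h. Their part in the differences between replicate numbers was not tested.

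Lipofection of siRNA against PBS gave 0 calls in 56 member tests over 7 comparisons, with 3 at an unadjusted p under 0.05 and 0.0403% of all tests called. L. casei MVs against 100 ng siRNA at 48 h gave 0 of 8, with 1 at an unadjusted p under 0.05 and 0.0213% of all genes called, and EHF at 1.00 on the log2 scale (edgeR adjusted p = 0.707). HNF4A spanned -0.11 to 0.04 and CDX2 -0.18 to 0.10 over the 7 lipofection comparisons. GATA4 spanned -1.09 to -0.08, and none of its tests passed. The 3 comparisons at 10 h share 2 PBS libraries, with GATA4 at 10.6 CPM (25 counts) and 4.17 CPM (30 counts), and the 3 at 24 h share another 2, so their values are not independent. With the replicate block fitted within each time 1 of the 56 tests passed, GATA6 with 100 ng siRNA at 48 h (0.37, edgeR adjusted p = 0.0444), where 0.719% of all genes were called. Among the kept libraries, the groups of that test share replicate 2 only.

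The genes whose log2 CPM ran most like each member over the 66 libraries are given as a description, since libraries share time and replicate number. Differences between treatments, such as that of EHF with OMVs, were not removed from any r value given here. HNF4G ran closest to GUCY2C (r = 0.95), HNF4A to NDRG1 (0.92), CDX2 to PRR15L (0.93), GATA6 to TRIM28 (0.91), ELF3 to SERPINB6 (0.90), GATA4 to LGSN (0.84) and GATA5 to CALM3 (0.79). For EHF the closest were PI3, an elastase inhibitor of epithelia (0.65), complement C3 (0.62) and SDC4 (0.59). After the mean of each class of time and replicate number was removed, EHF ran closest to C3 (0.67), TNFAIP3, an inhibitor of NF-kB signalling (0.66), and PERP (0.66), GATA6 to the stem cell factor ASCL2 (0.85), HNF4A to PGPEP1 (0.76) and ELF3 to SALL4 (0.68). Among the members HNF4A and CDX2 had r = 0.78 before and 0.36 after this removal, HNF4G and CDX2 0.75 and 0.21, HNF4G and GATA6 -0.73 and -0.01, and EHF and ELF3 0.24 and 0.43.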

How the data were processed

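Per the labels and the study's methods, the authors depleted rRNA, aligned paired reads to GRCh38 with STAR, deduplicated with sambamba and counted reads per gene with featureCounts, and deposited raw counts. The annotation release is not given in the sources used here. Gene lengths came from GENCODE v44. CPM is counts over library size scaled by trimmed mean of M-values (TMM). edgeR 4.0.16 was used in R 4.3.3 (filterByExpr on kept and set-aside libraries together, 18775 genes kept; glmQLFit with the dispersion trend, robust; group plus replicate number). The members and lists were chosen with earlier results of these data known. All 9 members were named; list genes only where called beside a called member, at most 6 per list. Mean time contrasts and those of replicates 4 and 5 were chosen after seeing the data. Same-numbered libraries deviated together (81 pairs in 39 comparisons, r = 0.19 to 0.67), so the number was kept as a block. These pairs are not independent, since deviations within a group of 2 libraries mirror each other and groups recur over comparisons. The pairing comes from the data, since the labels do not name the cultures, and p-values measure only the spread between these libraries. Log2 CPM for variance and likeness used a prior count of 2, and genes with a mean of at least 5 CPM entered the likeness search. The similarity check used 1500 variable genes. The fit was tested on simulated data. Alternatives were DESeq2 1.42.0, other normalization, filter, block and lane settings, all libraries, and each library left out (with the dispersion trend kept). Every column of the table was matched to a sample.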

Additional observations from a re-analysis of the deposited data

Results flagged for a closer look

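In the 2 groups with 4 kept libraries (100 ng siRNA and L. casei MV-RNA at 10 h), 1 of 17 sets of a member and a group held a value flagged as apart from the others. CDX1 had 0.163 CPM with L. casei MV-RNA at 10 h in replicate 2, which is 1 count, and 0 in the other 3 libraries. The rule sets the gap to the next value against the range of the set. A lone count among zeros is therefore always flagged, and nothing follows from this flag for CDX1.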

How the results depend on the processing

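Among treatments, comparisons with LPS, species, times in the control groups and replicates 3 and 2, no member call changed direction under any alternative. The mean time contrasts and the replicate contrasts chosen after seeing the data were not part of this check. Among those replicate contrasts, ELF3 was called in opposite directions by different fits, as given above. Of the 2 treatment calls (EHF with OMVs), 1 remained with DESeq2, which gave no adjusted p at 10 h, and 0 without the replicate block or with the set-aside libraries included, with or without the block. The 4 calls against LPS became 2 with DESeq2 and 0 in those 3 fits, and the 2 between species became 1 with DESeq2, with replicates 2 and 3 alone or without the robust option, 0 in those 3 fits and 6 with the block within each time. The 13 calls over time became 2 without the block, 0 with the set-aside libraries and 8 with replicates 2 and 3, and could not be fitted with the block within each time. In that fit 1 lipofection test passed. With single libraries left out the counts ran from 1 to 2 for treatments, 1 to 4 against LPS, 1 to 3 between species and 8 to 14 over time, stayed at 7 between replicates 3 and 2, and stayed at 0 for lipofection, L. casei MVs against siRNA and differences of effects. The comparison of replicates 3 and 2 had 6 calls with the set-aside libraries included. EHF changes with OMVs ran from 0.96 to 1.98 at 10 h and 1.35 to 2.07 at 24 h over the fits that left out no single library. EHF and GATA5 rest on few counts per library, which limits them.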
